A study of Homo sapiens with 16 samples.

Results

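H661 is an established human line of large cell lung carcinoma, a class of lung cancer that by histology shows neither clear glandular, squamous nor small cell differentiation. It was described from 2 arrays, those labelled H661 3D and H661 2D, out of 16 arrays in all. The series held 8 untreated lung cancer lines, each with 1 array per culture, so the other 7 lines (A427, A549, H23, H358, H460, H1437 and H1703) gave 7 arrays in 3D and 7 in 2D. In 3D the cells sat on a thin Matrigel layer, a basement membrane extract, under medium that also held some Matrigel, and in 2D they grew on culture plastic at matched density and in matched medium. RNA was measured on the Affymetrix U133 Plus 2.0 array, and every value here is a deposited log2 ratio. The values themselves point to a reference for each probe set, its median over the 16 arrays or, for a dim one, a fixed minimum, so ratios compare arrays within a gene and never one gene with another. All cells of a line come from 1 established culture, no other genotype, treatment or time was given, and nothing in the labels separates a change in each cell from a change in which cells were present.

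A pair of questions was asked. The first was what sets H661 apart from the other lines whatever the culture, taken as the mean of its 3D and 2D arrays minus the mean of the other 7 line means. The second was how its 3D array differed from its 2D array, beside the same difference in each other line. H661 had 1 array per culture, so no test exists within it, and "3D minus 2D" in H661 is a value. What could be tested was H661 as 1 line against the other 7 lines, with limma over 14113 genes and Benjamini-Hochberg adjustment, under the assumption that H661 varies like the other lines.

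As background, epithelial tumour cells are held together by E-cadherin and built on keratin filaments, whereas fibrillar collagens of types I and III are products of mesenchymal cells. Cells on Matrigel meet laminin and type IV collagen in place of bare plastic. Cells with ample glucose raise TXNIP and ARRDC4 through the factor pair MondoA or ChREBP with MLX, which binds the carbohydrate response element. Cells short of an amino acid or under stress in the endoplasmic reticulum raise genes for amino acid synthesis and transport through ATF4, which binds the amino acid response element.

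Arrays of the series had medians of -0.28 to -0.07, with -0.26 for H661 3D and -0.20 for H661 2D, and interquartile ranges of 0.735 to 0.895, with 0.876 and 0.863 for H661 3D and 2D. Over 14113 genes the H661 3D and 2D arrays correlated at 0.88, within the range of 0.81 to 0.94 of the other lines, as a description across genes that are not independent. A control probe set for 18S ribosomal RNA differed by -1.23 between 3D and 2D in H661, within -3.45 to -0.08 in the other lines. GAPDH control signal at the 3' end minus that at the 5' end, a sign of RNA quality, was 0.13 in H661 3D and 0.30 in H661 2D, the last being the highest of the 16 arrays, whose other lines lay between -0.08 and 0.20. The hybridisation spikes, added at fixed amounts, were at 0.30 in H661 3D, the highest of the 16 arrays, and -0.10 in H661 2D, against -0.17 to 0.17 in the other lines. Whether these controls played a part in the differences below was not tested, except that the 18S value was added to one fit as a covariate.

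Markers of the labelled cell type, a lung cancer cell, gave a mixed picture in H661. EPCAM, an epithelial adhesion protein, had ratios of 1.64 in H661 3D and 0.86 in H661 2D, against a median of -2.62 and a highest value of 4.36 in the other lines. CDH1, which encodes E-cadherin, was at 1.89 in H661 3D and -2.05 in H661 2D, against -4.61 to 6.93 in the other lines. The simple epithelial keratins did not follow these. KRT8 was at -6.64 in both H661 arrays, the lowest ratio that the deposited values hold, against a median of 0.14 and a lowest of -6.62 in the other lines. KRT18 was at -4.62 in H661 3D and -4.59 in H661 2D, against a median of 0.45 and a lowest of -5.71, so low values of both were not confined to H661. KRT19 was at -3.97 in H661 3D and -3.86 in H661 2D, and KRT7 was at -3.65 and -3.55, each close to the lowest other array at -3.90 and -3.45. The intermediate filament gene VIM was at 1.21 in H661 3D and 0.95 in H661 2D, near the top of the other lines (-4.89 to 1.42). FN1, fibronectin, was low in H661, with -4.15 in 3D and -4.04 in 2D against -2.74 to 5.96.

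Of the lung lineage genes, NKX2-1, the transcription factor of lung epithelium, was at 5.31 in H661 3D and 4.95 in H661 2D, and the highest other array, from H358, reached 5.40. SFTA3, which lies beside NKX2-1, was at 8.69 in H661 3D and 7.36 in H661 2D, again below H358 at 10.10. The surfactant genes SFTPB and SFTPC, made by alveolar type II cells, stayed between -0.10 and 0.10 in both H661 arrays. Averaged over 16 tested lung lineage genes the ratio was -0.12 in H661 3D and 0.06 in H661 2D, against -0.23 to 1.38 in the other arrays. NKX2-1 was thus high in H661 while the surfactant genes and simple keratins were not, in a line that the labels call only a lung cancer cell.

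Markers of cell types that a pure line should lack were also read. Over 7 tested leukocyte markers the mean ratio was -0.27 in H661 3D and -0.15 in H661 2D, against -0.14 to 0.79 in the other arrays, and 0 of 7 stood above all other arrays. PTPRC, the pan-leukocyte phosphatase CD45, was at 0.01 in H661 3D and -0.04 in H661 2D. Over 6 endothelial markers the mean was -0.28 in H661 3D and -0.02 in H661 2D, against -0.47 to 0.89. Over 8 fibroblast markers the mean was 3.43 in H661 3D and 3.39 in H661 2D, against -0.63 to 1.14. Of the 8, 3 stood above all 14 other arrays, where 6.21% of all genes did. Those 3 were COL1A1, COL1A2 and COL3A1, described below, while DCN, the fibroblast proteoglycan decorin, was at -0.19 in H661 3D and -0.11 in H661 2D, and PDGFRB, a receptor of fibroblasts and pericytes, was at -0.01 and 0.67.

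In the comparison of H661 with the other 7 lines, 43 of 14113 genes were higher (0.305%) and 21 lower (0.149%), 64 in all (0.453%), at a limma adjusted p under 0.05. Without adjustment 1087 genes had a p under 0.05. Counted without a test, both H661 arrays lay above all 14 other arrays for 877 genes (6.21%) and below all of them for 852 genes (6.04%), a split of 50.7% above that became 56.7% with each array centred on its median and 57.3% after quantile normalisation. The called genes depended on the variance model, since robust empirical Bayes gave 0 adjusted calls with 1063 genes at an unadjusted p under 0.05. They also depended on single lines, with 28 calls when A549 was left out and 38 without H23.

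COL1A2, the second chain of type I collagen, had the largest difference of the 14113 genes. It stood at 11.26 in H661 3D and 10.39 in H661 2D, while the other 14 arrays lay between -0.59 and 0.13 with a median of -0.02. The difference was 10.88 (SE 0.89, limma adjusted p = 0.00503), a fold of 1880, and it was lost with A549 left out (adjusted p = 0.0533) and with robust empirical Bayes (0.165). COL3A1, the chain of type III collagen, was also above all other arrays in H661, at 10.56 in 3D and 10.55 in 2D, but A427 reached 5.43, and the difference of 9.98 (SE 3.33) did not pass (adjusted p = 0.452). COL1A1, the partner chain of COL1A2, was at 2.43 in H661 3D and 2.39 in H661 2D as the mean of 5 probe sets whose differences from the other lines ran from -0.20 to 5.17. COL11A1, a minor fibrillar collagen, was dim over the series, with no other array above -0.67, and was at 10.93 in H661 3D and 10.56 in H661 2D.

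Of 21 tested genes of the interstitial matrix list, 5 had both H661 arrays above all others (23.8%) and 2 below (9.52%). Over all genes these shares were 6.21% and 6.04%. The median difference of the list was 1.19 against -0.07 over all genes, and it ranged from 0.46 to 1.23 over the other settings. COL5A2, a type V collagen chain, differed by 5.49, and THBS1, the matrix glycoprotein thrombospondin 1, by 4.29, neither past the test. On the low side PLOD2, a collagen lysyl hydroxylase, differed by -5.13 (adjusted p = 0.275), with -5.40 in H661 3D and -3.99 in H661 2D. S100A4, a calcium-binding protein often used as a mesenchymal marker, was at the lowest ratio in both H661 arrays. The list of mesenchymal genes had a median difference of 0.71, which turned to -0.04 when probe sets that the array design marks as able to cross-hybridise were left out.

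**Figure D1:**
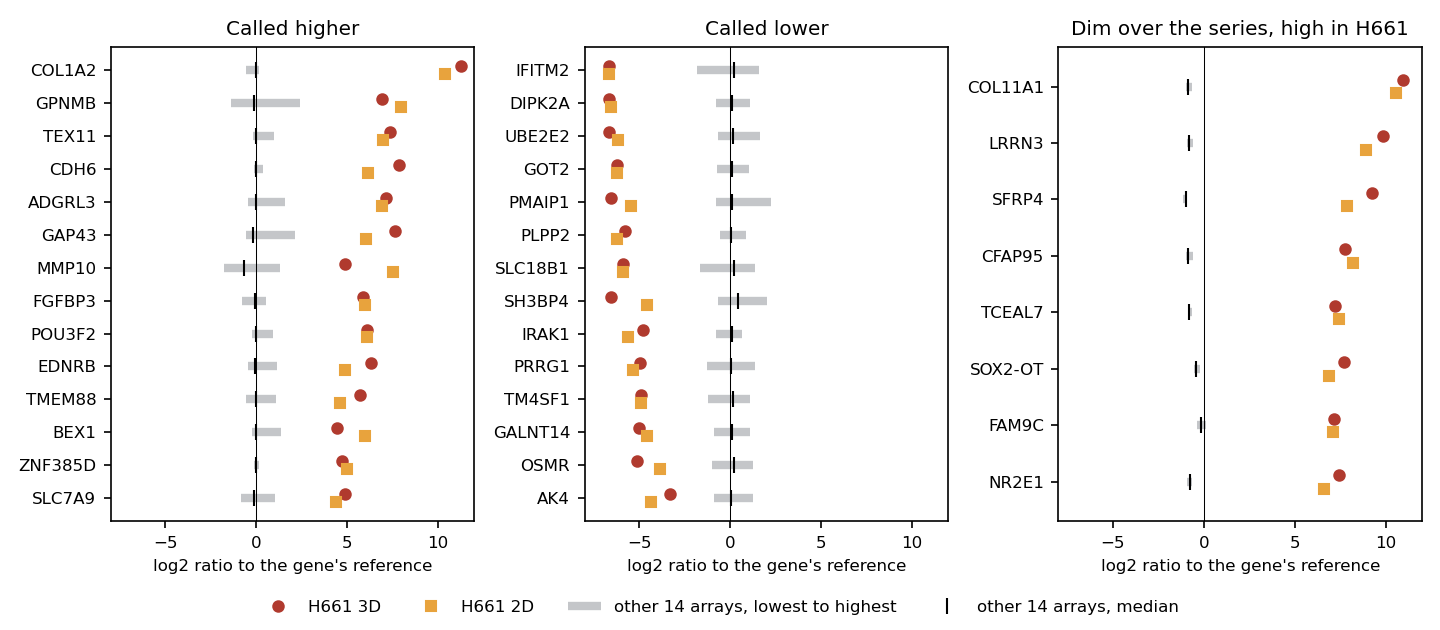
Log2 ratios to the reference of each gene, 1 row per gene. The 3 panels hold genes called higher, genes called lower and genes that were dim over the series but high in H661. Circles are H661 3D, squares H661 2D, grey bars the lowest to highest of the other 14 arrays and ticks their median. Both H661 points lie outside the grey bar in every row, as the choice of genes required.

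The called genes for surface and signalling proteins are given next. GAP43, a growth cone protein, was at 7.63 in H661 3D and 6.03 in H661 2D, against -0.59 to 2.11, a difference of 6.75 (SE 0.79, adjusted p = 0.0154). ADGRL3, a latrophilin adhesion receptor of neurons, was at 7.13 in H661 3D and 6.92 in H661 2D, against -0.46 to 1.57, a difference of 6.78 (SE 0.87, 0.0226). EDNRB, the endothelin B receptor needed by neural crest cells, was at 6.33 in H661 3D and 4.86 in H661 2D, against -0.48 to 1.13, a difference of 5.53 (SE 0.62, 0.0137). In each of these genes H661 lay above every other array, a condition of their choice, and the 3D array was the higher of its pair. GPNMB, a glycoprotein of melanosomes and lysosomes, was at 6.92 in H661 3D and 7.93 in H661 2D, with H358 nearest at up to 2.38, and differed by 7.71 (SE 1.02, 0.0272). BEX1, a brain-expressed adaptor, was at 4.42 in H661 3D and 5.96 in H661 2D, and differed by 5.03 (SE 0.63, 0.0209). The calls of GAP43, ADGRL3, GPNMB and BEX1 were lost in 7 of 18, 7 of 17, 8 of 18 and 7 of 18 other settings.

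Transcription factors were among the called genes too. POU3F2, the neural POU factor BRN2, was at 6.10 in H661 3D and 6.11 in H661 2D, against -0.23 to 0.93, a difference of 5.91 (SE 0.63, adjusted p = 0.0122). Of 15 tested neuroendocrine genes, with POU3F2, 2 stood above all other arrays and 1 below, where 6.21% and 6.04% of all genes did. Their median difference was 0.01. The markers CHGA, CHGB and SYP were at 1.06, 2.16 and 0.32 in H661 3D and 0.48, -0.25 and -0.03 in H661 2D. INSM1 was at -0.56 and -0.55, and NCAM1 at -0.87 and -0.85. None of these markers exceeded the highest other array. Further members of the list that were dim over the series went both ways. SCG3 was at 3.56 in H661 3D and 0.88 in H661 2D, with no other array above -0.46. STMN2 was at 2.63 in H661 3D and -0.17 in H661 2D, with none above -0.59. DDC, GRP and SCN3A were at -0.52, -0.54 and -0.47 in H661 3D. ZNF385D, a zinc finger protein, varied little among the other lines, with 4.73 in H661 3D and 4.98 in H661 2D against -0.11 to 0.17, a difference of 4.85 (SE 0.34, 0.00503). DPF1, a neuronal subunit of the SWI/SNF chromatin remodeller, was at 3.81 in H661 3D and 3.65 in H661 2D and differed by 3.78 (adjusted p = 0.0118), the only one of 24 tested SWI/SNF genes that was called. Genes that were dim over the series but high in H661 included NR2E1, the neural stem cell receptor TLX, at 7.43 in H661 3D and 6.59 in H661 2D. SOX2-OT, the noncoding transcript around SOX2, was another, at 7.73 and 6.88. SOX2 itself, a factor of stem cells and foregut, was at 7.10 in H661 3D and 5.77 in H661 2D, but the highest other array reached 4.41 and the difference of 5.92 did not pass (adjusted p = 0.634).

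Other genes of early development were far from the other lines without passing the test. LIN28B, which blocks maturation of let-7 microRNAs, was at 8.47 in H661 3D and 8.23 in H661 2D, against -1.15 to 3.10 (difference 8.14, SE 1.71, adjusted p = 0.133). SALL4, an embryonic zinc finger factor, was at 7.51 in H661 3D and 7.09 in H661 2D, against -0.53 to 5.19. ZEB2, a repressor of E-cadherin, was at 6.5 in H661 3D and 6.59 in H661 2D, against -0.82 to 4.29. KLF4, a factor of differentiated epithelium and of reprogramming, was low, at -4.89 in H661 3D and -4.10 in H661 2D. Of 19 tested stem and embryonic factors 4 stood above all other arrays and 3 below, where 6.21% and 6.04% of all genes did. None of the 19 was called.

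The HOX genes, which set position along the body axis, had 7 of 21 tested members above all other arrays and 0 below, where 6.21% and 6.04% of all genes did so, and a median difference of 1.25. HOXB2 was at 3.85 in H661 3D and 3.51 in H661 2D and differed by 3.5 (adjusted p = 0.173), and HOXC6 was at 2.46 in 3D and 2.45 in 2D and differed by 3.45 (0.937). In the NOTCH pathway 4 of 18 members stood above all other arrays and 1 below. HEY1, a repressor that NOTCH switches on, was at 6.66 in H661 3D and 5.28 in H661 2D (difference 5.59, adjusted p = 0.622), and HES4, of the same family, at 2.29 and 1.97 (3.02, 0.900). None of the HOX or NOTCH genes was called.

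Called genes of other roles completed the high side. CDH6, a cadherin of kidney and neural crest, was at 7.82 in H661 3D and 6.16 in H661 2D, against -0.11 to 0.36, a difference of 6.94 (SE 0.51, adjusted p = 0.00503). TEX11, a meiosis gene of the testis, was at 7.36 in H661 3D and 6.99 in H661 2D (difference 7.10, SE 0.63, 0.00609). FGFBP3, a carrier of fibroblast growth factors, was at 5.89 in H661 3D and 5.97 in H661 2D (6.11, SE 0.52, 0.00503). MMP10, the matrix protease stromelysin 2, was at 4.87 in H661 3D and 7.51 in H661 2D, against -1.78 to 1.32 (6.63, SE 0.96, 0.0410), a call lost in 11 of 18 other settings (adjusted p up to 0.225). TMEM88, an inhibitor of WNT signalling at the membrane, differed by 5.15 (adjusted p = 0.00664), and SLC7A9, a subunit of a cystine transporter, by 4.69 (0.0137). CNN1, the smooth muscle actin-binding protein calponin, was at 3.20 in H661 3D and 3.70 in H661 2D, against -0.30 to 0.17 (3.49, SE 0.27, 0.00503). H661 exceeded every other array in all of these genes, which for all but CNN1 was a condition of their choice.

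The called genes on the low side were led by the interferon-inducible membrane protein IFITM2, at the lowest ratio of -6.64 in both H661 arrays, against -1.81 to 1.60 in the other lines. Its difference of -6.75 (SE 0.81, limma adjusted p = 0.0181) is therefore a bound, and it was lost without H460 (0.0582), without H1703 (0.0732) and in 2D alone (0.861). Its near-identical relative IFITM3 was at the same lowest ratio in both H661 arrays, and probes may not tell the pair apart. Of 29 tested interferon-stimulated genes 8 had both H661 arrays below all others and 0 above, with a median difference of -1.99 and 1 call, IFITM2, where 6.04% and 6.21% of all genes lay so. OAS1, an antiviral oligoadenylate synthetase, was at -4.97 in H661 3D and -4.85 in H661 2D, and its difference of -4.78 (adjusted p = 0.905) did not pass.

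Of 20 tested genes of class I antigen presentation 5 had both H661 arrays below all others (6.04% of all genes did), 0 above and 15 neither, with a median of -1.36 and 0 called. PSMB8, a subunit of the immunoproteasome, was at -6.43 in H661 3D and -5.93 in H661 2D, against -5.40 to 1.58, a difference of -6.08 (adjusted p = 0.351). The 28 tested NRF2 targets, genes of the oxidative stress response, all lay below the mean of the other lines in H661. Their median was -1.90, with 0 called. Only 4 of the 28 had both H661 arrays below all others (6.04% of all genes did), and 0 above. NQO1, a quinone reductase among the 28, was at -2.30 in H661 3D and -2.29 in H661 2D and differed by -2.37 (adjusted p = 0.726). In glycolysis 7 of 22 genes stood below all other arrays (6.04% of all genes did) and 0 above, with a median of -0.82.

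GOT2, the mitochondrial aspartate aminotransferase, was at -6.20 in both H661 arrays, against -0.73 to 1.05, a difference of -6.37 (SE 0.57, adjusted p = 0.00614). IRAK1, a kinase of the interleukin 1 and Toll-like receptor pathways, was at -4.82 in H661 3D and -5.61 in H661 2D (-5.31, SE 0.48, 0.00614). PMAIP1, the apoptosis inducer NOXA, was at -6.54 in H661 3D and -5.45 in H661 2D (-6.33, SE 0.83, 0.0262). In these genes both H661 arrays lay below all 14 other arrays, a condition of their choice. The other arrays reached 2.24 for PMAIP1, and the call of PMAIP1 was lost in 8 of 16 other settings. PLPP2, a lipid phosphatase, differed by -6.06 (adjusted p = 0.0104), and OSMR, the oncostatin M receptor, by -4.66 (0.0491). AK4, a mitochondrial adenylate kinase, differed by -4.00 (0.0404), and TM4SF1, a tetraspanin-like surface protein, by -5.04 (0.0416), with probe sets from -6.80 to -2.0. The calls of OSMR, AK4 and TM4SF1 were lost in 11 of 17, 10 of 18 and 11 of 17 other settings. DIPK2A and UBE2E2, a secreted protein of the kinase-like family and a ubiquitin-conjugating enzyme, were at the lowest ratio in H661 3D, so their differences of -6.67 and -6.57 (0.0137 and 0.0140) are bounds.

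Receptors and genes of their output lay on both sides of the other lines. The receptor tyrosine kinase MET was at -2.51 in H661 3D and -3.03 in H661 2D (difference -3.06, adjusted p = 0.250), and EGFR was at -1.38 and -0.87 (-1.37, 0.620). PDGFRA, the receptor of platelet-derived growth factor on mesenchymal cells, was at 5.19 in H661 3D and 2.37 in H661 2D. Among genes of ERK output, DUSP4, a phosphatase that ERK induces, was at -6.55 in H661 3D and -6.64 in H661 2D, while DUSP6, another such phosphatase, was at 2.05 and 1.58. In that list 2 of 20 genes stood above all other arrays and 6 below, where 6.21% and 6.04% of all genes did.

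The second question was the difference between 3D and 2D in H661. H661 had 364 genes at least 2-fold higher in 3D (2.58%) and 689 at least 2-fold lower (4.88%), a share of 34.6% higher among them, which became 42.8% with arrays centred on their medians and 46.5% after quantile normalisation. The same counts were 86 and 67 in A427, the lowest pair, and 561 and 146 in A549. The SD of the 3D minus 2D difference over genes was 0.558 in H661 and 0.310 to 0.548 in the other lines. H661 had the highest of the 8 SDs, but rank 3 after quantile normalisation, with 0.481. The difference in H661 was above 0 for 39.9% of genes and below 0 for 60.1%, and its median was -0.08, which became -0.02 after centring and 0.02 after quantile normalisation.

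**Figure D2:**
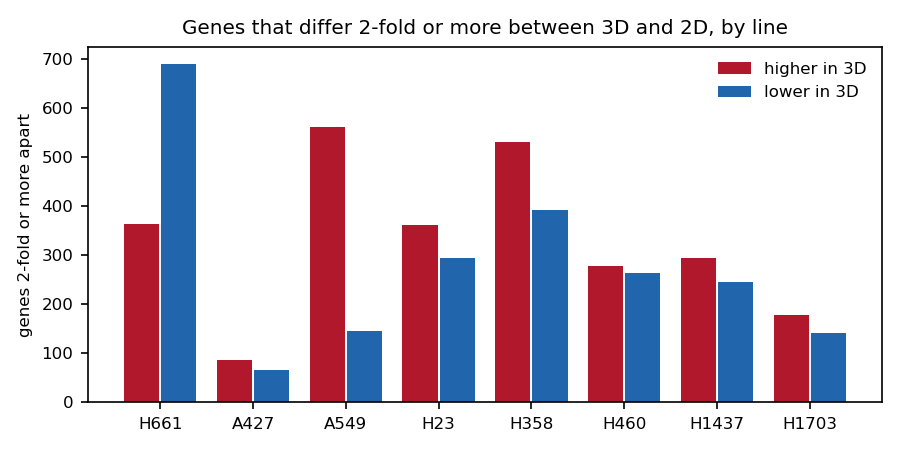
Size of the 3D minus 2D difference in each of the 8 lines, with H661 first. For each line 1 bar counts the genes at least 2-fold higher in 3D and 1 bar those at least 2-fold lower, and H661, with 364 higher and 689 lower, has the largest count on the lower side.

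Across the 14113 genes the 3D minus 2D difference of H661 correlated at 0.37 with that of H1703, the closest line, and at 0.08 with that of H1437, the least close, given as a description across genes. The culture difference over the other 7 lines, fitted with H661 left out, called 111 genes higher in 3D (0.787%) and 182 lower (1.29%). H661 had the same sign for 87 of the 111 (78.4%, where 39.9% of all genes were above 0) and for 170 of the 182 (93.4%, where 60.1% of all genes were below 0). The medians over these genes were 0.45 in H661 and 0.61 in the other lines on the high side, and -0.63 and -0.55 on the low side. The 293 calls of that limma fit depended on single lines: leaving out H358 or H1437 gave 0, with 2559 and 3191 genes at an unadjusted p under 0.05, and leaving out A549, H23, H460 or H1703 gave 12, 2, 1 and 2. Genes with the opposite sign in H661 included PYGL, the liver glycogen phosphorylase, at -1.08 in H661 and 0.22 to 1.03 in the other lines, and KIF21A, a kinesin, at 0.96 in H661 and -1.43 to -0.34 in the other lines. Neither passed the test of the difference (limma adjusted p = 0.0707 and 0.106).

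Against the other 7 lines the 3D minus 2D difference of H661 was higher for 20 of 14113 genes (0.142%) and lower for 12 (0.085%), 32 in all (0.227%), with 1493 genes at an unadjusted p under 0.05. With the 18S difference as a covariate 29 genes were called. Counted without a test, the value of H661 lay above all 7 other lines for 1517 genes (10.7%) and below all of them for 3259 genes (23.1%), so that 31.8% of these lay above. That share was 44.6% after centring (1998 above, 2481 below) and 53.8% after quantile normalisation (1941 above, 1666 below). The number of calls was 17 without probe sets of cross-hybridising design, 6 after quantile normalisation and 17, 19 and 20 with A427, H460 or H23 left out.

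The largest difference in H661 was in TXNIP, which encodes an arrestin-like protein that binds thioredoxin and curbs glucose uptake, and which glucose induces. Of 2 RefSeq promoters of TXNIP in build GRCh38.p14, one holds a match to the carbohydrate response element, searched as CACGNG and CACGNG with NNNNN between them. It is shown because TXNIP leads the response. It spans the 300 bases chr1:145996530-145996829 on the minus strand, written 5' to 3' along the gene, with the match in capitals, 88 bases before the gene start.
TXNIP: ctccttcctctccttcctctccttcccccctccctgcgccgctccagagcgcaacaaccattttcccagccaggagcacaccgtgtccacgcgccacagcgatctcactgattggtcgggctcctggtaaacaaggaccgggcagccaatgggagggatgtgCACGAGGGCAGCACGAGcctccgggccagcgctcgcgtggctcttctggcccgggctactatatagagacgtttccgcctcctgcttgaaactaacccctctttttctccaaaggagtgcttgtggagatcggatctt
The same pair of motifs, searched on both strands, occur in 20 of 35116 promoters of that length (0.057%) and in 17 of 11306 tested genes with a promoter (0.15%). A match is a description of the letters and not evidence of binding.

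TXNIP was at 3.10 in H661 3D and -2.72 in H661 2D. That is a 3D minus 2D difference of 5.82, a fold of 56.5, against 0.54 to 1.96 in the other lines, so that every line was higher in 3D and H661 by the most. The difference from the other lines was 4.41 (SE 0.51, limma adjusted p = 0.0168), with 3 probe sets at 4.28 to 6.81 for 3D minus 2D in H661. It was lost without A427 (0.0513) and with the variance trend taken over the mean difference (0.918). ARRDC4, a related arrestin that glucose also induces, was at 1.23 in H661 3D and -2.92 in H661 2D, a difference of 4.15 against 0.45 to 3.13 in the other lines (adjusted p = 0.295). Its promoters in the table hold no match to that pair. Of 23 tested genes of circadian control and glucose sensing, 3 were at least 2-fold higher in H661 3D and 1 lower. Of all genes 2.58% and 4.88% were. The list median was 0.21, and TXNIP was the 1 call.

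SLC2A1, the glucose transporter GLUT1, was at 1.15 in H661 3D and -3.25 in H661 2D, a difference of 4.40, against -0.13 to 2.36 in the other lines (adjusted p = 0.100). PDK1, the kinase that closes pyruvate dehydrogenase, was at 0.36 in H661 3D and -2.60 in H661 2D, and BNIP3, a mitophagy receptor, at 2.23 and -0.19. Their differences of 2.96 and 2.42 lay above and within those of the other lines, which reached 2.59 and 2.57. These genes belong to the hypoxia list, of whose 28 tested members 8 were at least 2-fold higher in H661 3D and 3 lower. Of all genes 2.58% and 4.88% were. The list median was 0.38, against 0.31 to 0.74 in the other lines. ADM, the peptide adrenomedullin and another hypoxia gene, differed by -1.93. In glycolysis 17 of 22 genes were above 0 (39.9% of all genes were) and 6 above all other lines (10.7% of all genes were). The median was 0.28, against 0.04 to 0.32 in the other lines, and none was called.

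**Figure D3:**
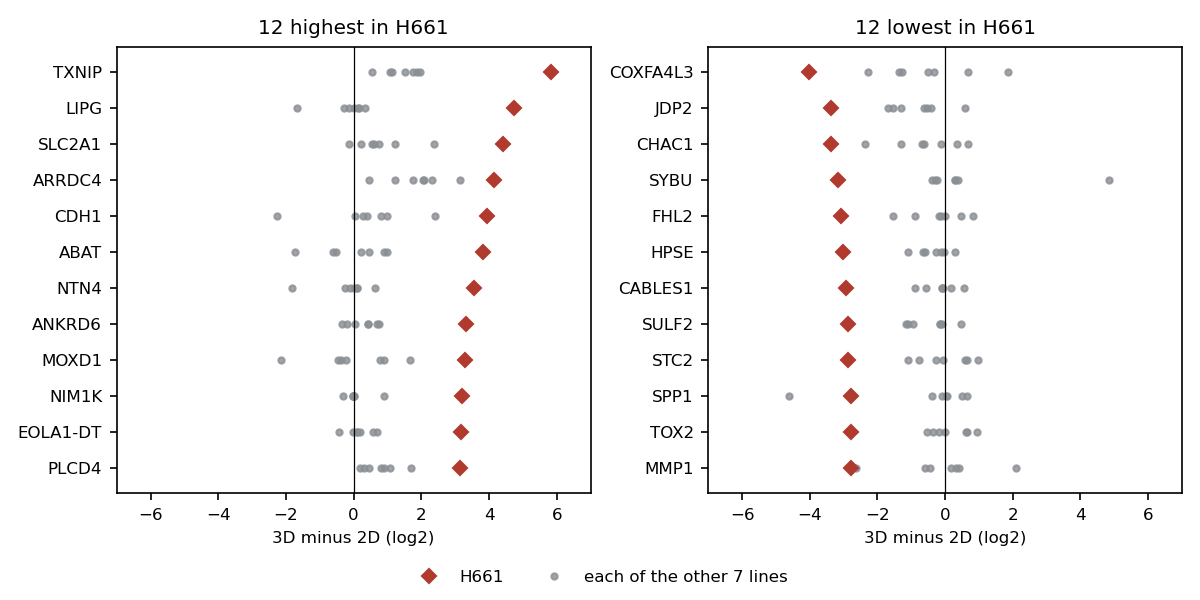
The 3D minus 2D difference (log2) of the 12 highest and 12 lowest genes in H661, 1 row per gene, with H661 as a diamond and each of the other 7 lines as a grey point. TXNIP at 5.82 and LIPG at 4.73 lie to the right of every other line and COXFA4L3 at -4.03 to the left, while for SPP1 H1437 lies below H661.

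Apart from TXNIP, called genes that were higher in H661 3D included LIPG, endothelial lipase, at 1.82 in 3D and -2.92 in 2D. Its difference was 4.73 against -1.66 to 0.34 in the other lines (difference of differences 4.94, SE 0.64, adjusted p = 0.0185), lost without H23 (0.0521) and after quantile normalisation (0.0626). ANKRD6, the WNT and planar polarity regulator diversin, was at 5.0 in H661 3D and 1.67 in H661 2D, against -0.33 to 0.74 for 3D minus 2D in the other lines (3.07, SE 0.43, 0.0289). NIM1K, a protein kinase, was at 3.51 in H661 3D and 0.31 in H661 2D (3.12, SE 0.38, 0.0168). MSI2, an RNA-binding protein of stem cells, was at 1.09 in H661 3D and -0.91 in H661 2D. Its 3D minus 2D difference was -0.21 to 0.35 in the other lines (difference of differences 2.02, SE 0.24). In each of these the difference in H661 was above that of every other line.

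SOBP, a nuclear zinc finger protein, was at 4.65 in H661 3D and 2.19 in H661 2D (2.81, SE 0.33, adjusted p = 0.0168). ANK2, the membrane anchor ankyrin B, was at 4.43 in H661 3D and 2.25 in H661 2D (2.24, SE 0.28, 0.0184). ATL1, the membrane-shaping GTPase atlastin, was at 0.20 in H661 3D and -1.57 in H661 2D (2.00, SE 0.28, 0.0291). Noncoding transcripts were part of the same set. HYMAI, an imprinted RNA, was at 3.55 in H661 3D and 0.59 in H661 2D (2.81, SE 0.29, 0.0145), and it was called under 17 of 17 other settings. The calls of ANKRD6, ATL1 and MIR34A were lost in 6 of 16, 7 of 17 and 7 of 17. The probe set assigned to MIR34A, whose microRNA p53 induces, was at 0.69 in H661 3D and -1.02 in H661 2D (2.19, SE 0.31, 0.0289). EOLA1-DT and LINC01549 were at 3.72 and 3.66 in H661 3D, and 0.54 and 1.09 in H661 2D (0.0184 each). The level of LINC01549 in the other arrays lay only between -0.28 and 0.39.

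The called genes that were lower in H661 3D included TNFRSF9, the costimulatory receptor 4-1BB, at 0.30 in 3D and 2.87 in 2D (-2.64, SE 0.31, adjusted p = 0.0168). Levels of TNFRSF9 in the other arrays lay only between -0.08 and 0.62. ATP13A2, a lysosomal polyamine exporter, was at -0.22 in H661 3D and 2.35 in H661 2D, against levels of -0.59 to 1.57 in the other arrays. Its 3D minus 2D difference was -0.33 to 0.19 in the other lines (difference of differences -2.53, SE 0.26). HPSE, the heparan sulphate cleaving heparanase, was at -2.17 in H661 3D and 0.85 in H661 2D (-2.67, SE 0.42, 0.0486). In all of these the level in 3D was the lower of the pair and H661 lay below every other line. PRNP, the prion protein, was at -1.72 in H661 3D and -0.29 in H661 2D (-1.46, SE 0.18, 0.0184). CYB5R2, a cytochrome b5 reductase, was at -1.14 and 1.17 in H661 3D and 2D (-2.36, SE 0.32, 0.0268). SEPTIN3, a neuronal septin, differed by -1.98, METRN, the secreted factor meteorin, by -1.94, and SH3BP4, an endocytic adaptor that was also low in H661 in both cultures, by -1.89 (0.0291, 0.0304 and 0.0464). The calls of HPSE, SH3BP4, METRN and SEPTIN3 were lost in 11 of 17, 11 of 16, 9 of 17 and 6 of 16 other settings.

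Other large differences in H661 were not called. CDH1 differed by 3.94, against -2.27 to 2.40 in the other lines (adjusted p = 0.317). ABAT, which breaks down the transmitter GABA, was at 7.01 in H661 3D and 3.20 in H661 2D (0.140), and NTN4, a netrin of basement membranes, at -0.85 and -4.42 (0.0973). COXFA4L3, a relative of a cytochrome oxidase subunit, was at -1.39 in H661 3D and 2.64 in H661 2D (0.317). STC2, a secreted stress glycoprotein, was at -3.60 in H661 3D and -0.73 in H661 2D (0.165), and MMP1, interstitial collagenase, at 3.75 and 6.52 (0.487). These are values from 1 array per culture.

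Genes of the amino acid response were lower together in H661 3D. The list of ATF4 targets and serine synthesis had 36 tested members, of which 35 were below 0 (60.1% of all genes were), 28 were at least 2-fold lower (4.88% of all genes) and 21 lay below all 7 other lines (23.1% of all genes). Its median was -1.36 in H661, against -1.14 in H460, the next lowest line, and 0.13 in the highest. With arrays centred 25 members were at least 2-fold lower (570 of 14113 genes were) and the median was -1.30. After quantile normalisation 20 members were (343 of 14113 genes were) and the median was -1.09. The lowest other line was then close, at -1.05, and 17 members lay below all 7 other lines, where 1666 of 14113 genes did. None of the 36 was called against the other lines.

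**Figure D4:**
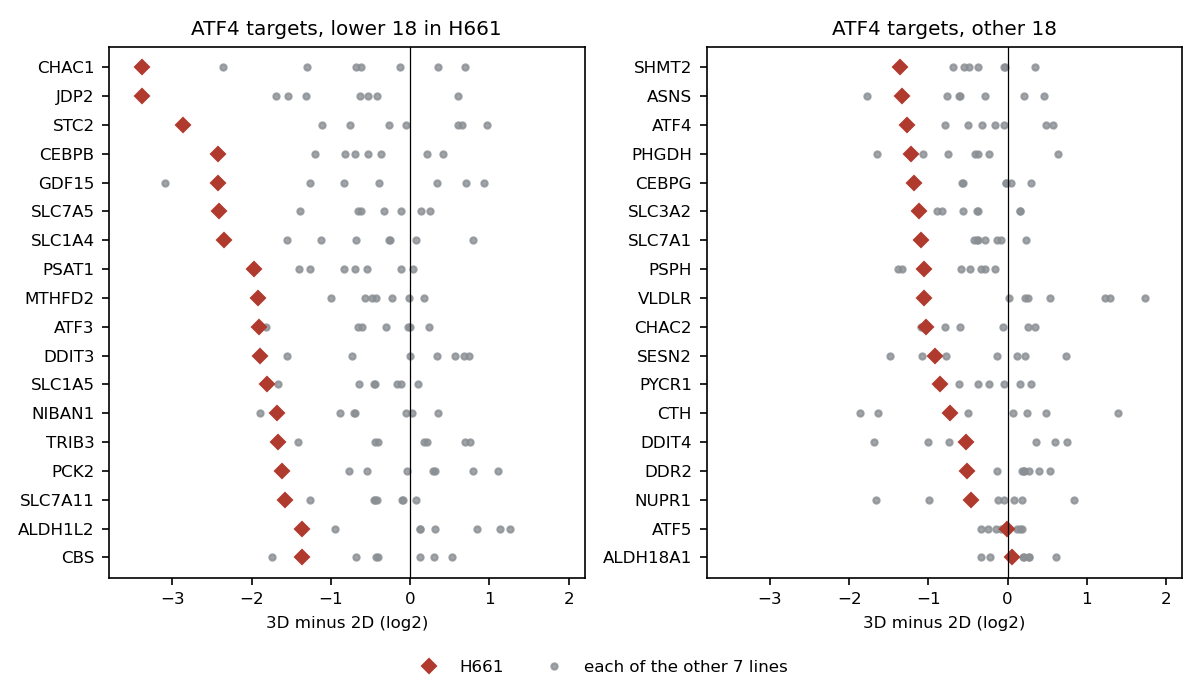
The 3D minus 2D difference (log2) of the 36 tested genes of the ATF4 list in H661 (diamonds) and each of the other 7 lines (grey points). H661 points lie below 0 for 35 of the 36 genes, down to -3.38 for CHAC1 and JDP2.

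Promoters of 3 members that lay below all other lines, in build GRCh38.p14 of RefSeq, are printed with their matches to TGATGNAA, the letters of the amino acid response element, in capitals. They are CHAC1 at chr15:40953221-40953520 on the plus strand, with the match on the opposite strand 209 bases before the start, JDP2 at chr14:75427772-75428071 on the plus strand, 16 bases before, and ATF3 at chr1:212565157-212565456 on the plus strand, 191 bases before.
CHAC1: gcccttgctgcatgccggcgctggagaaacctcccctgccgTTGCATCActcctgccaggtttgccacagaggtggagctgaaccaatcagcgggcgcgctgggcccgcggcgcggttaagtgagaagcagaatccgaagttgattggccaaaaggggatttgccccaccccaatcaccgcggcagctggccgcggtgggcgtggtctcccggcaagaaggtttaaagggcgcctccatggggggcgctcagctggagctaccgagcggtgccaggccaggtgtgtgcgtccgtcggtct
JDP2: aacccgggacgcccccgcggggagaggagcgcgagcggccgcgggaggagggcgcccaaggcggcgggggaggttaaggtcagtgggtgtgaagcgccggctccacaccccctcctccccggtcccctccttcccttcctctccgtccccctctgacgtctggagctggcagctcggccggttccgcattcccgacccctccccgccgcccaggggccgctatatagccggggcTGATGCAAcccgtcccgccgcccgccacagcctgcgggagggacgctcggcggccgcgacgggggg
ATF3: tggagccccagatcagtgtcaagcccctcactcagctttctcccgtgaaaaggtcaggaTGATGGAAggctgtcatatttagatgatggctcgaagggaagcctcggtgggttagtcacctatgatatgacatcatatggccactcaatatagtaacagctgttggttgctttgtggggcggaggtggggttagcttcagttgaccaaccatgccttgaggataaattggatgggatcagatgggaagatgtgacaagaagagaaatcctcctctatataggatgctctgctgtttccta
Searched on both strands, these letters occur in 1270 of 35116 promoters (3.62%), in 324 of 11306 tested genes with a promoter (2.87%), and in 10 of the 30 list members with a promoter (33.3%), which are ASNS, ATF3, CEBPG, CHAC1, DDR2, JDP2, SLC1A4, SLC1A5, SLC3A2 and SLC7A1. The members were chosen as known targets of ATF4, so that share is a description.

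CHAC1, which degrades glutathione and is a target of ATF4, was at -0.51 in H661 3D and 2.87 in H661 2D, a difference of -3.38 against -2.36 to 0.69 in the other lines (adjusted p = 0.295). JDP2, a repressor of the AP-1 family, was at -2.0 in H661 3D and 1.38 in H661 2D, again -3.38, against -1.69 to 0.60 (0.219). ATF3, a stress factor of the same family, was at -0.43 in H661 3D and 1.48 in H661 2D. H661 lay below all 7 other lines in each of these. SLC7A5, the large neutral amino acid transporter, was at -2.93 in H661 3D and -0.52 in H661 2D, and SLC1A4, a transporter of serine and alanine, at -1.37 and 0.98. PSAT1, of serine synthesis, was at -0.93 in H661 3D and 1.03 in H661 2D, and ASNS, asparagine synthetase, at 0.41 and 1.74. DDIT3, the stress factor CHOP, was at 0.27 in H661 3D and 2.15 in H661 2D, and TRIB3, its pseudokinase target, at -1.70 and -0.04. ATF4 mRNA itself differed by -1.27, with -0.74 in H661 3D and 0.53 in H661 2D, although ATF4 is known to be controlled largely at translation. The 17 tested tRNA synthetases, many of them ATF4 targets, were all below 0 in H661 (60.1% of all genes were), with a median of -0.70, while H460 was lower at -0.77. Of the 17, 8 lay below all other lines (23.1% of all genes did), but 2 did after quantile normalisation, when 1666 of 14113 genes did.

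Antigen presentation was lower in H661 3D as well as low in H661 as a line. Of 20 tested genes of class I presentation 19 were below 0 (60.1% of all genes were) and 14 lay below all 7 other lines (23.1% of all genes did). The median was -0.55 against -0.05 to 0.61 in the other lines. After centring 13 lay below all others (2481 of 14113 genes did), with a median of -0.49. After quantile normalisation 10 did (1666 of 14113 genes did), with a median of -0.29. PSMB9, an immunoproteasome subunit, was at -5.50 in H661 3D and -2.79 in H661 2D, a difference of -2.71 against -0.52 to 0.98 (adjusted p = 0.0817). HLA-B, a class I heavy chain, was at -3.01 in H661 3D and -2.08 in H661 2D, a difference of -0.93 against -0.03 to 1.14 (0.280). HLA genes share long stretches, so their probe sets may not separate them.

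Growth genes were lower in H661 3D, as they were in most lines. All 31 tested mitosis genes and all 33 of DNA replication were below 0 (60.1% of all genes were), with medians of -0.95 and -0.80. At least 2-fold lower were 14 and 10 of them (4.88% of all genes were). After quantile normalisation 11 and 4 were, when 343 of 14113 genes were. The medians in the other lines ran from -1.06 to 0.07 and from -0.87 to -0.17, so H358 was lower than H661 in both. MKI67, the proliferation antigen Ki-67, was at -0.48 in H661 3D and 1.15 in H661 2D, a difference of -1.63 (adjusted p = 0.261). All 25 ribosome biogenesis genes were below 0 (60.1% of all genes were), with a median of -0.68. After quantile normalisation 3 of them were above 0, when 7455 of 14113 genes were. MYC, a transcription factor of that programme, was at -3.14 in H661 3D and -1.61 in H661 2D, a difference of -1.53 against -0.22 to 0.52 (0.100).

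The p53 target genes went the other way in H661. Of 20 tested members 16 were above 0 (39.9% of all genes were) and 8 lay above all 7 other lines (10.7% of all genes did), with a median of 0.42 against -0.84 to 0.17 in the other lines, and 0.48 and 0.56 after centring and quantile normalisation. SESN1, a sestrin that p53 induces and that restrains mTORC1, was at 2.84 in H661 3D and 0.78 in H661 2D, a difference of 2.06 against -1.49 to 0.08 (adjusted p = 0.112). CDKN1A, the cell cycle inhibitor p21, was at -0.68 in H661 3D and -1.59 in H661 2D. GDF15, a stress cytokine that p53 and ATF4 both induce, differed by -2.42, the opposite sign. None of the 20 was called.

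**Figure D5:**
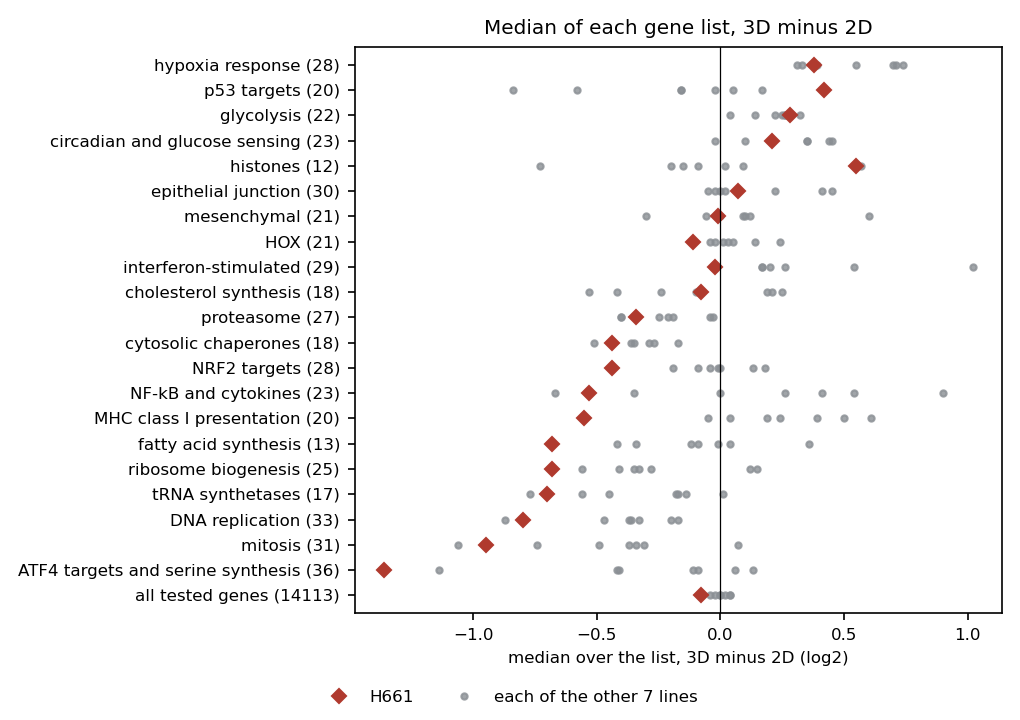
Median 3D minus 2D difference (log2) of gene lists in H661 (diamonds) and each of the other 7 lines (grey points), with the number of tested genes in brackets. H661 has the lowest median of the 8 lines for the ATF4 list at -1.36 and the class I presentation list at -0.55, and the highest for p53 targets at 0.42.

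NRF2 targets, which in H661 lay below the mean of the other lines, were also lower in its 3D array. Of the 28, 25 were below 0 (60.1% of all genes were). Of the 28, 13 lay below all 7 other lines (23.1% of all genes did), and the median was -0.44. After quantile normalisation 5 lay below all other lines (1666 of 14113 genes did) and the median was -0.17. In that setting 12 were above 0 (7455 of 14113 genes were). SLC7A11, the cystine importer that both NRF2 and ATF4 induce, was at -4.39 in H661 3D and -2.81 in H661 2D. In fatty acid synthesis 4 of 13 genes were at least 2-fold lower (4.88% of all genes were) and 6 lay below all other lines (23.1% of all genes did). The median was -0.68 against -0.42 to 0.36. After quantile normalisation 1 of the 13 was at least 2-fold lower (343 of 14113 genes were). The median of -0.48 was then no lower than that of the lowest other line at -0.48. SREBF1, the transcription factor of that pathway, was at -0.14 in H661 3D and 1.47 in H661 2D, a difference of -1.61 against -0.67 to 0.22 (adjusted p = 0.111). None of these genes was called against the other lines.

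Matrix and receptor genes differed in both directions between the cultures of H661. PDGFRA differed by 2.82 between 3D and 2D in H661, against -0.03 to 0.40 in the other lines (adjusted p = 0.059). COL4A6 and COL4A5, chains of type IV collagen in basement membranes, differed by 1.93 and 1.60 (0.274 and 0.304). ITGA5, the fibronectin receptor chain, was at -0.19 in H661 3D and 1.42 in H661 2D (0.248). COL1A2 and COL3A1 were high in both cultures of H661, as given above. MMP10, by contrast, was lower in H661 3D by the gap between 4.87 and 7.51 (0.433).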

How the data were processed

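The authors deposited a log2 ratio per probe set (54675) and array (16, 1 per line and culture). The median linear ratio of a probe set was 1 for 63.5% of them (log2 within 0.001 of 0) and lower for the other 36.5%, which were treated as dim. How the scans were summarised and normalised is not given in the sources used here. The lowest ratio is 0.01, held by 297 values. Arrays give no depth, so their number limits the precision.

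Gene symbols came from the platform annotation, updated through RefSeq (GRCh38.p14): 41097 probe sets had 1 symbol, 1801 several and 11777 none, and 41043 were matched. A gene was the mean of its probe sets that were not dim. Of 19775 genes 5662 were left out as dim, and 14113 were tested. Line means and 3D minus 2D differences, paired by the line named in the labels, were each compared between H661 and the other 7 lines by lmFit and eBayes with a trend over gene means (limma 3.58.1, R 4.3.3), called at an adjusted p under 0.05. The lone line is assumed to vary like the others, and an exact permutation over lines cannot go below 1 in 8. The steps were tested on simulated data.

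Members and lists were chosen with earlier results of these data known. Named genes were the 14 highest and 14 lowest called genes with H661 outside all other arrays, 8 dim genes high in H661, the 12 highest and 12 lowest 3D minus 2D values, the 12 highest and 12 lowest of the 32 called responses, the 5 of opposite sign and up to 4 members per list. Others, such as MKI67, ATF4 and MYC, were chosen after their values were seen. Alternatives changed the normalisation, filters, probe sets, variance model and lines included.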

Additional observations from a re-analysis of the deposited data

Results flagged for a closer look

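The 3D minus 2D difference of H661 departed from that of the other 7 lines by limma's test in these named genes, given as the difference of differences (log2). Higher in H661 were LIPG by 4.94, TXNIP by 4.41, NIM1K by 3.12, ANKRD6 by 3.07, EOLA1-DT by 3.01, SOBP by 2.81, HYMAI by 2.81, LINC01549 by 2.39, ANK2 by 2.24, MIR34A by 2.19, MSI2 by 2.02 and ATL1 by 2.0. Lower in H661 were HPSE by -2.67, TNFRSF9 by -2.64, ATP13A2 by -2.53, CYB5R2 by -2.36, SEPTIN3 by -1.98, INKA2-AS1 by -1.96, METRN by -1.94, SH3BP4 by -1.89, SBF2-AS1 by -1.78, ZNF250 by -1.49, PRNP by -1.46 and CHST13 by -1.33. The calls of CHST13, ZNF250 and SBF2-AS1 were lost in 11, 11 and 10 of 17 other settings. NIM1K, LINC01549, TNFRSF9 and INKA2-AS1 varied mainly in H661. In the other arrays INKA2-AS1 lay only between -0.16 and 0.27 and NIM1K between -0.12 and 0.87. The ranges of LINC01549 and TNFRSF9 are given above.

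Among the other 7 lines, 1 line stood far from the rest in the 3D minus 2D difference of 8 of 47 named genes. H1437 did so for LIPG at -1.66, NTN4 at -1.82 and SPP1 at -4.62, and H460 for NIM1K at 0.89 and ANK2 at -0.55. A549 did so for SYBU at 4.85 and TNFRSF9 at 0.67, and H23 for INKA2-AS1 at -0.20. The same held for 2 of 49 list medians, DNA replication with H358 at -0.87 and endothelial markers with H23 at 0.34. Chance alone gives such a line in about 1 of 20 groups.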

How the results depend on the processing

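Calls between H661 and the other lines, 64 in the reported fit, numbered 337 with no filter on dim genes, 42 without values at the lowest ratio, 39 after quantile normalisation, 0 with robust empirical Bayes (1063 at an unadjusted p under 0.05), 148 with all 16 arrays and line as a random block (correlation 0.835), 40 in 2D alone and 28 to 65 with 1 other line left out (28 without A549, 38 without H23). Calls for the 3D minus 2D difference, 32, numbered 17 without cross-hybridising probe sets, 237 with no filter, 6 after quantile normalisation and 17 to 37 with 1 line left out (17 without A427, 19 without H460, 20 without H23). Calls over the other 7 lines, 293, numbered 6 with no filter, 103 after quantile normalisation, 98 with no variance trend, 0 with the trend over the mean difference (3134 at an unadjusted p under 0.05; chosen after seeing the data), and 0 to 370 with 1 line left out, with 12 without A549, 1 without H460, 2 without H23 and 2 without H1703. The count of 2-fold genes in H661, 1053, was 641 after quantile normalisation. Single genes were followed through these settings only where they were named by call, by size of the 3D minus 2D value or by opposite sign. None of those changed direction. Genes named only as list members, as dim genes or after their values were seen were not followed. Without A549 the calls over the other 7 lines were 8 higher and 4 lower, against 111 and 182 with it. Leaving out 1 line ended the call of a named gene in 129 cases and made one in 4. By replicate number no paired analysis was possible because those numbers follow deposition order, and all 3D minus 2D results are instead paired by line.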

Other observations

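Genes whose probe sets were all dim over the series, with both H661 arrays at least 2-fold above the reference and no other array so high, numbered 100. Among them, chosen after their values were seen, were secreted antagonists of WNT signalling. SFRP4 was at 9.24 in H661 3D and 7.85 in H661 2D, with no other array above -0.91, SFRP2 at 7.60 and 5.04 with none above -0.48, and FRZB at 5.83 and 4.51 with none above -0.14. LRRN3, a neuronal leucine-rich repeat protein, was at 9.83 in H661 3D and 8.91 in H661 2D. SOX3, a neural SOX factor, was at 7.07 in H661 3D and 6.54 in H661 2D, and CYP26A1, which degrades retinoic acid, at 6.07 and 7.44. LAMA4, a laminin chain of vessels and mesenchyme, was at 4.39 in H661 3D and 3.79 in H661 2D. TYROBP, a signalling adaptor of myeloid and natural killer cells, was at 3.67 in H661 3D and 2.72 in H661 2D with no other array above -0.12, while the other leukocyte markers were not raised.

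Of 15 tested neuroendocrine genes, whose median 3D minus 2D difference in H661 was -0.01, 3 were at least 2-fold higher in H661 3D and 0 lower. Of all genes 2.58% and 4.88% were. SCG5, a chaperone of prohormone convertase, was at 0.67 in H661 3D and -1.97 in H661 2D, CHGB, chromogranin B, at 2.16 and -0.25, and SCG2, secretogranin II, at 4.0 and 2.26. Their 3D minus 2D differences of 2.64, 2.41 and 1.74 stood beside highest values of 1.67, 2.09 and 2.52 in the other lines, and none passed the test (limma adjusted p = 0.304, 0.492 and 0.698). SCG3 and STMN2, which were dim over the series and not tested, were also higher in H661 3D, as given above. In the other direction PCSK1N, an inhibitor of prohormone convertase, differed by -0.95. UCHL1, a neuronal ubiquitin hydrolase, differed by -0.86 and ENO2, neuronal enolase, by -0.45. For PCSK1N, UCHL1 and ENO2 the difference in H661 lay below all other lines.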
